A study of Takifugu obscurus with 9 samples.

Results

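The genes described here are the chains of MHC class II, the invariant chain, the regulators named after class II, and the lysosomal reductase ifi30 in kidney of the obscure puffer (Takifugu obscurus). They were chosen by their protein descriptions: a match to a fish protein described as MHC class II, class II histocompatibility antigen, HLA class II or ifi30. The rule itself uses no measured value. The rule gave 10 of 46444 features, each of them 1 gene-level group of transcripts from the assembly, and 21146 of the 46444 have a fish match. The 10 are 2 beta chains, 1 invariant chain, 2 features of ifi30, 2 of the transactivator ciita and 3 of the factor rfx1. None of them is described as a class II alpha chain.

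MHC class II molecules are pairs of an alpha and a beta chain that show peptides from engulfed material to helper T cells. The invariant chain, encoded by CD74, fills the groove of new class II molecules and steers them to endosomes, where cathepsins degrade it, while IFI30 reduces disulfide bonds of engulfed proteins there. In mammals the transactivator CIITA, recruited by RFX5, RFXAP and RFXANK at the promoter, sets class II transcription, and B cells, macrophages and dendritic cells are the main carriers. The fish kidney is both a renal and a blood-forming organ and so can hold such cells.

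Total RNA of kidney from fish 3 months old was sequenced in 9 libraries. The groups were 3 control libraries at 0 h, 3 libraries at 12 h and 3 at 48 h after poly(I:C), an artificial RNA duplex that triggers antiviral sensors. The labels give neither the dose nor the route, nor whether the controls were injected. None of the libraries is a control at 12 h or 48 h, so treatment and time cannot be told apart. Nothing in the labels says that replicates came from separate fish, so p-values measure the spread between these libraries, which may be technical.

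Values are in TPM, a transcript level scaled for feature length and library total. Depth was estimated at 20700000 to 27600000 reads per library from the steps between low values. Several libraries stand apart. Controls 1 and 2 correlated at 0.985 across features on the log2 scale, while every other within-group pair lay between 0.857 and 0.967. Control 3 correlated at 0.857 and 0.864 with controls 1 and 2, and at 0.919, 0.925 and 0.927 with the 48 h libraries. By this measure it lay nearer to the 48 h group than to the other controls. Compared with controls 1 and 2, the mean log2 level of control 3 differed by 1.75 for T cell markers, 1.43 for erythroid markers, 0.77 for macrophage markers and -1.03 for proximal tubule markers. Library 3 at 12 h lay between the other two libraries of its group, correlating at 0.947 and 0.967 with them while they correlated at 0.879 with each other. In bulk tissue, fewer cells of a type and less RNA per cell cannot be told apart.

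The labels of the chain genes were checked against the other annotations in the table. The invariant chain feature carries the Pfam domain MHC2-interact and the KEGG entry CD74, but its Swiss-Prot name is nidogen-2. The feature described as an I-E beta chain carries an immunoglobulin C1-set domain, and its Swiss-Prot match is a class I alpha chain. The feature described as a DRB1-11 beta chain carries the domain MHC_II_beta, and ifi30 carries the domain GILT. The 3 rfx1 features are members only because rfx1 is described as an MHC class II regulatory factor. In mammals RFX1 is not a subunit of the RFX5 complex.

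Both beta chains and the invariant chain of the rule were among the abundant transcripts of the kidney. Their mean levels were lower in both groups after poly(I:C) than in the controls. A second feature with the CD74 entry in KEGG, outside the rule and described below, was not lower at 12 h. Its means were 867 TPM at 0 h, 875 TPM at 12 h and 595 TPM at 48 h. At 12 h against 0 h, 1 of the 10 members was called, the I-E beta chain, which fell to 0.619 of its control level. Calls here are features with a limma p under 0.05 after Benjamini-Hochberg adjustment, and 1.42% of the 45473 features tested were called in this comparison, 0.831% as lower. At 48 h against 0 h none of the 10 was called by limma, where 0.011% of all features were, although 5 of the 10 had an unadjusted p under 0.05, as 11.1% of all features did. The mean of ifi30 was 2.17 times as high at 48 h as at 12 h, a difference that limma did not call, and ciita had nearly equal means in the 3 groups. The comparisons of 12 h and of 48 h with 0 h share their 3 control libraries.

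**Figure D1:**
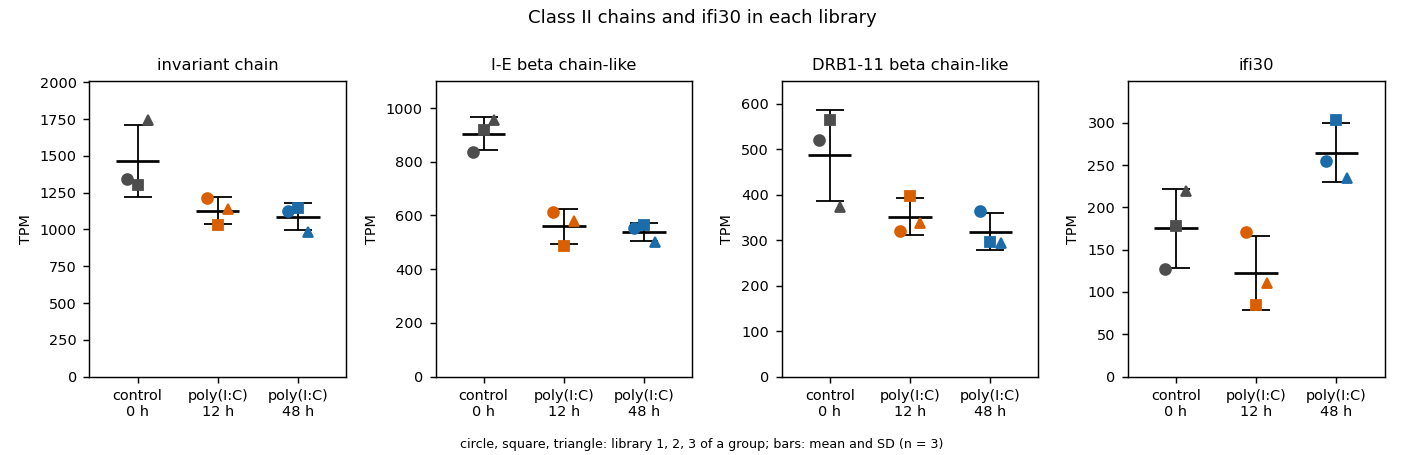
Level in TPM (vertical axis, from 0) of the invariant chain, both beta chains and ifi30 in the 9 libraries, by group (horizontal axis). Points are libraries and bars are the mean with the SD over 3 libraries; the 3 chains have all 48 h libraries under the controls, and ifi30 has all 48 h libraries above them.

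The I-E beta chain is called dab below, after the naming of class II beta genes in zebrafish. That name is not among its annotations, and its Swiss-Prot match is a class I alpha chain. The feature is a cluster of 21 assembled transcripts with a length of 1012 nucleotides, and ranked 195 by mean level among all features. Its levels were 838, 920 and 957 TPM in the controls, 613, 487 and 579 TPM at 12 h, and 552, 564 and 500 TPM at 48 h. Every library at 12 h and 48 h lay under every control, and the 12 h and 48 h libraries overlapped. The group means were 905 ± 60.9, 560 ± 65.3 and 539 ± 34.2 TPM (SD, n = 3 each). The difference on the log2(TPM + 1) scale was -0.70 at 12 h (SE 0.13, 95% interval -0.99 to -0.40, limma adjusted p = 0.0386). At 48 h it was -0.75 (limma adjusted p = 0.340), as large as at 12 h but not called. The unadjusted limma p was 0.00037 at 12 h and 0.000217 at 48 h. The adjustment runs over all features of a comparison, of which 15.9% had an unadjusted p under 0.05 at 12 h and 11.1% at 48 h. Between 48 h and 12 h the difference was -0.05 (limma adjusted p = 0.854). An estimated 6510 to 13500 reads per library lay behind these values.

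The 12 h call of dab was close to the threshold. It held in 5 of 19 other fits and was lost in 14, with log2 differences of -0.77 to -0.60 and limma adjusted p of 0.0251 to 0.402. Leaving out any 1 library ended the call except 12 h library 1, with limma adjusted p of 0.0462 without that library and up to 0.161 without 12 h library 3.

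The DRB1-11 beta chain, a shorter feature of 422 nucleotides and 12 transcripts, had 520, 565 and 374 TPM in the controls. It had 320, 397 and 337 TPM at 12 h and 365, 297 and 295 TPM at 48 h. Library 2 at 12 h lay above the lowest control, and all 48 h libraries lay under every control. The means were 486 ± 99.9, 351 ± 40.6 and 319 ± 40.1 TPM (SD, n = 3 each). The log2 differences from 0 h were -0.45 at 12 h (limma adjusted p = 0.258) and -0.59 at 48 h (limma adjusted p = 0.409), neither of them called. Control 3 was the lowest of its group for this beta chain and the highest for dab, so the ratio of dab to DRB1-11 was 2.56 in that library and 1.61 and 1.63 in the other controls. After poly(I:C) this ratio ran from 1.23 to 1.92.

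The invariant chain was the most abundant member, ranked 117 of all features. Its levels were 1342, 1303 and 1747 TPM in the controls, 1213, 1032 and 1139 TPM at 12 h, and 1127, 1149 and 980.2 TPM at 48 h. All 6 libraries after poly(I:C) lay under all 3 controls, and the 12 h and 48 h libraries overlapped. The means were 1464 ± 246, 1128 ± 91.0 and 1085 ± 91.6 TPM (SD, n = 3 each). The log2 differences from 0 h were -0.37 at 12 h (SE 0.15, limma adjusted p = 0.260) and -0.42 at 48 h (limma adjusted p = 0.414), neither of them called. Per library, the invariant chain stood at 1.60, 1.42 and 1.83 times dab in the controls. The ratio was 1.98, 2.12 and 1.97 at 12 h and 2.04, 2.04 and 1.96 at 48 h, above every control.

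**Figure D2:**
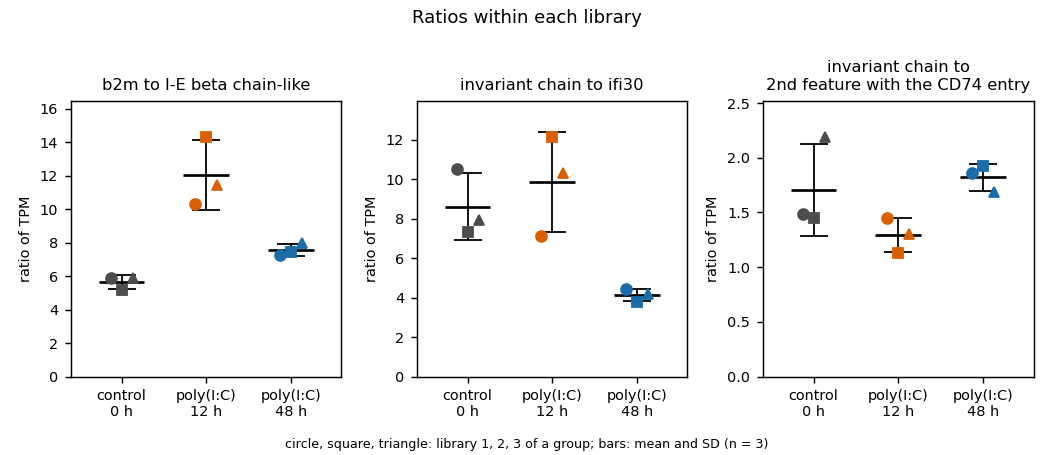
Ratio of levels within each library (vertical axis, no unit) by group (horizontal axis), with points for libraries and bars for the mean and SD of 3 libraries. The ratio of b2m to dab, the I-E beta chain, runs from 5.16 to 5.88 at 0 h, from 10.3 to 14.4 at 12 h and from 7.29 to 7.98 at 48 h.

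The thiol reductase ifi30, a cluster of 4 transcripts and 1368 nucleotides, had 128, 178 and 220 TPM in the controls and 170, 85.0 and 111 TPM at 12 h. At 48 h it had 255, 304 and 235 TPM, above every other library. The means were 175 ± 46.2, 122 ± 43.8 and 265 ± 35.3 TPM (SD, n = 3 each), and the 0 h and 12 h libraries overlapped. From 12 h to 48 h the log2 difference was 1.16 (SE 0.27, 95% interval 0.56 to 1.76, unadjusted p = 0.0016), which limma did not call (adjusted p = 0.0607). It was called in 3 of 19 other fits: with a filter of 5 TPM, without control 3 and without 12 h library 1 (limma adjusted p 0.0423, 0.0394 and 0.0289). Against 0 h the log2 differences were -0.54 at 12 h (limma adjusted p = 0.368) and 0.62 at 48 h (limma adjusted p = 0.446). The invariant chain stood at 7.12 to 12.2 times ifi30 in the 6 libraries of 0 h and 12 h, and at 4.41, 3.78 and 4.17 times at 48 h. The other ifi30 feature is a fragment of 227 nucleotides with 0 to 3.89 TPM and an estimated 0 to 5.04 reads per library, too few for its differences to be read.

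Of the regulators, ciita had 25.4, 27.8 and 25.9 TPM in the controls. It had 24.8, 30.8 and 22.2 TPM at 12 h and 21.3, 25.9 and 30.9 TPM at 48 h. The 3 groups overlapped throughout, with means of 26.4 ± 1.27, 25.9 ± 4.40 and 26.0 ± 4.77 TPM (SD, n = 3 each). The log2 difference was -0.04 at 12 h (95% interval -0.43 to 0.36, limma adjusted p = 0.948) and -0.03 at 48 h (95% interval -0.43 to 0.36, limma adjusted p = 0.957). Differences inside these intervals cannot be told from 0. The level of ciita was about 26.1 TPM over the 9 libraries, far under those of the chains. A ciita fragment of 953 nucleotides lay between 0.63 and 2.15 TPM, with an estimated 7.75 to 29.3 reads per library.

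The factor rfx1, a feature of 4176 nucleotides, had 10.6, 10.4 and 11.8 TPM in the controls and 11.1, 10.5 and 11.8 TPM at 12 h. It had 13.3, 17.7 and 16.3 TPM at 48 h, above all 6 other libraries. Its log2 difference at 48 h was 0.49 against 0 h (limma adjusted p = 0.409) and 0.46 against 12 h (limma adjusted p = 0.141), and limma called neither. The rfx1-like features A and B, of 2111 and 3414 nucleotides, ran from 5.77 to 11.7 TPM and from 4.06 to 8.41 TPM, with their highest control value in control 3. No difference of these features was called.

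**Figure D3:**
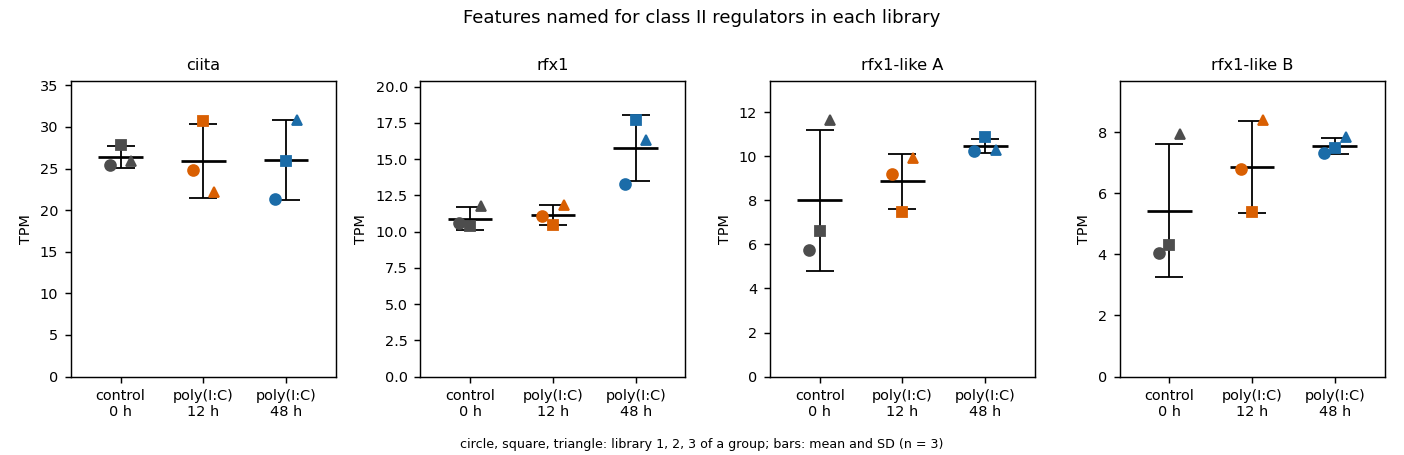
Level in TPM (vertical axis, from 0) of ciita and the rfx1 features in the 9 libraries by group (horizontal axis), with points for libraries and bars for the mean and SD over 3 libraries. The gene ciita overlaps between all groups, and rfx1 has its 3 highest values at 48 h.

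Counted over the 10 members at 12 h against 0 h, 7 log2 differences were under 0 and 3 above, with a median of -0.27 beside -0.07 over all features. Libraries did not overlap for 2 members, both lower, and for 20.9% of all features in either direction and 12.7% in the lower one. Of the 10, 3 had an unadjusted p under 0.05, against 15.9% of all features. In the comparison of 48 h with 0 h, 5 members were under 0 and 5 above, with a median of 0.19 beside 0.13 over all features. Here 5 members had libraries that did not overlap, against 16.2% of all features. Both beta chains and the invariant chain were lower (3.95% of all features), and ifi30 and rfx1 were higher (12.3% of all features).

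Between 48 h and 12 h, limma called none of the 10 members and 1.68% of all features. Of the 10, 2 had an unadjusted p under 0.05, ifi30 and rfx1, against 21.5% of all features. Libraries did not overlap for 4 members, ifi30, rfx1, rfx1-like A and the ciita fragment, all of them higher at 48 h, against 28.1% of all features in either direction and 20.5% in the higher one. The ciita fragment rests on an estimated 7.75 to 29.3 reads per library. The median log2 difference was 0.18 over the members and 0.21 over all features. This comparison is also the test of whether the 12 h and 48 h differences from 0 h are unequal.

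**Figure D4:**
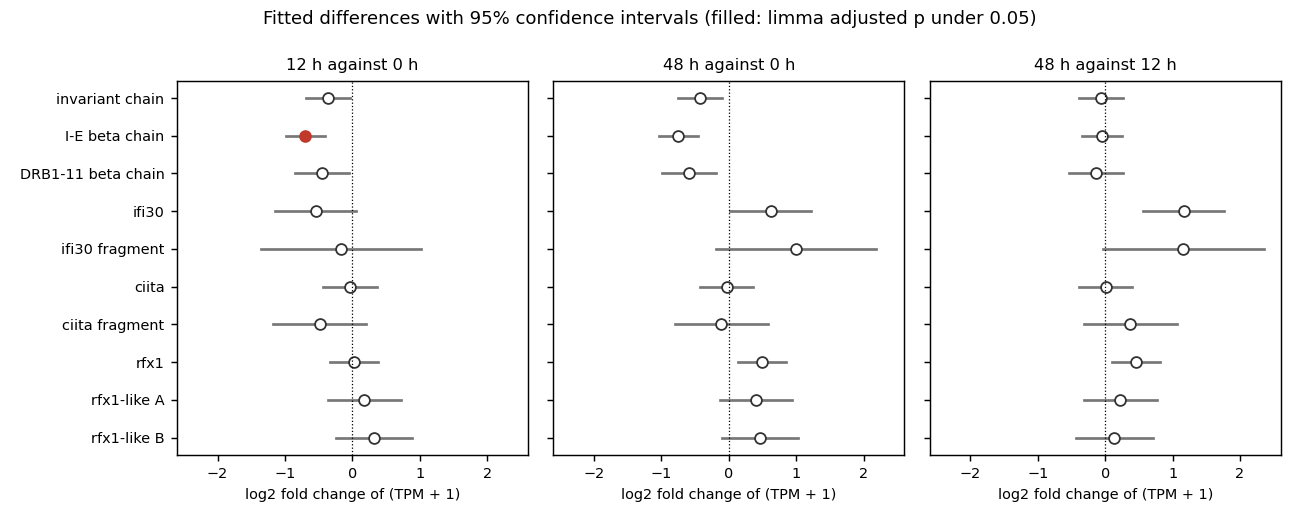
Log2 difference on the log2(TPM + 1) scale (horizontal axis) with its 95% interval for each of the 10 members (rows) in the 3 comparisons. Both beta chains and the invariant chain lie under 0 against 0 h, the I-E beta chain alone is called at 12 h, and ciita lies near 0.

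Of the features outside the description rule, 4 carry a class II or CD74 entry in KEGG, and they were looked up after the table had been seen. One, matched to the predicted gene LOC101064602 and carrying a C1-set domain, had 1901, 1934 and 2138 TPM in the controls, 1288, 982 and 1104 TPM at 12 h, and 1714, 1330 and 1175 TPM at 48 h. It fell at 12 h by 0.83 on the log2 scale (SE 0.16, limma adjusted p = 0.0440), a call that held in 6 of 18 other fits and in 2 of the 9 that left out a library (limma adjusted p of 0.0301 to 0.423 over all). Its difference from 0 h at 48 h was -0.52 (limma adjusted p = 0.409). Another, with the domain MHC_II_alpha and a length of 298 nucleotides, had 1045, 1068 and 1402 TPM in the controls and 1098, 523 and 745 TPM at 12 h. At 48 h it had 855, 956 and 673 TPM, and limma called no difference (adjusted p = 0.276 at 12 h).

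The other CD74 entry is a feature of 1461 nucleotides with the domain MHC2-interact, matched to an unnamed pufferfish protein. It had 906, 899 and 796 TPM in the controls, 839, 912 and 874 TPM at 12 h and 604, 598 and 582 TPM at 48 h. The 48 h libraries lay under all the others, and at 48 h against 12 h it fell by 0.56 on the log2 scale (SE 0.11, limma adjusted p = 0.0439), a call that held in 5 of 18 other fits and in 2 of the 9 that left out a library (limma adjusted p of 0.0242 to 0.232 over all). At 12 h against 0 h its difference was 0.02 (limma adjusted p = 0.968). The invariant chain of the description rule stood at 1.48, 1.45 and 2.19 times this feature in the controls and at 1.45, 1.13 and 1.30 times at 12 h. At 48 h the ratio was 1.86, 1.92 and 1.68. The remaining feature with such an entry carries a transposase domain, lies between 0.56 and 4.65 TPM and was not read as CD74.

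Genes acting around class II were counted from lists of known regulators and processing genes. Of 14 regulators, among them rfx5, rfxap and rfxank, which form the complex that recruits ciita, 13 were found, and limma called none of the 13 in any comparison. Their median log2 differences were 0.13 at 12 h, 0.18 at 48 h and 0.00343 from 12 h to 48 h, beside -0.07, 0.13 and 0.21 over all features. The gene rfxank had a mean of 11.3 TPM at 0 h and 20.1 TPM at 12 h, a log2 difference of 0.76 (limma adjusted p = 0.148). This was the largest difference of the 13 at 12 h. The log2 differences of rfx5 and rfxap at 12 h were 0.05 and 0.13 (limma adjusted p = 0.934 and 0.871). Of 21 processing and traffic genes, all 21 were found, and the feature standing for cst3 was the only one called, in 2 of the 3 comparisons. The table describes it only as a cystatin, a family of cysteine protease inhibitors, and the symbol comes from the list. The medians of the 21 were 0.18, 0.11 and 0.17 on the log2 scale. Of all features, limma called 1.42% at 12 h, 0.011% at 48 h and 1.68% from 12 h to 48 h. The gene cst3 had 435, 435 and 513 TPM in the controls, 213, 145 and 171 TPM at 12 h and 492, 487 and 297 TPM at 48 h. It fell by 1.40 on the log2 scale at 12 h (limma adjusted p = 0.0235) and rose by 1.25 from 12 h to 48 h (limma adjusted p = 0.0285). Of 9 fits that left out a library, the calls of cst3 held in 5 at 12 h and in 3 from 12 h to 48 h (limma adjusted p of up to 0.313 and 0.168 over all other fits). The gene ctss, cathepsin S, which trims the invariant chain, had means of 463, 546 and 465 TPM, with a log2 difference of 0.24 at 12 h (limma adjusted p = 0.513). The gene lgmn, the asparagine endopeptidase that makes early cuts in it, had means of 364, 194 and 344 TPM, with a log2 difference of -0.91 at 12 h (limma adjusted p = 0.115). Of 7 genes listed under co-stimulation, not all of which stimulate T cells, 4 were found, and limma called none of them in any comparison. Their medians were 0.09 at 12 h, -0.89 at 48 h and -0.98 from 12 h to 48 h. The mean log2 level of the 4 was 5.74 and 5.65 in controls 1 and 2 and 4.68 in control 3, and 4.16 to 4.80 at 48 h, so control 3 lay within the range of the 48 h libraries. The most abundant, cd276, had means of 113, 196 and 57.0 TPM, with a log2 difference of -1.95 from 12 h to 48 h (limma adjusted p = 0.0629). It is the highest of 6 features with that description.

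Genes of class I presentation, which shows peptides from inside the cell, were counted beside class II. Of 12 such genes 10 were found. Their median log2 differences were 0.62 at 12 h against 0 h, -0.17 at 48 h against 0 h and -0.76 at 48 h against 12 h. Over all features the medians were -0.07, 0.13 and 0.21. The gene psme1, a proteasome activator subunit, rose at 12 h by 0.87 on the log2 scale (limma adjusted p = 0.0446). It was 1 of the 10 called there, beside 1.42% of all features. From 12 h to 48 h b2m, psmb8, psmb9, psme1 and tap1 were called lower by limma, with log2 differences of -0.68 (psmb8) to -1.60 (tap1). These are 5 of the 10, beside 1.68% of all features called in either direction. The gene b2m, the light chain of class I, had 4919, 4748 and 5625 TPM in the controls, 6338, 6991 and 6626 TPM at 12 h and 4024, 4203 and 3988 TPM at 48 h. Its log2 difference was 0.39 at 12 h (limma adjusted p = 0.125) and -0.71 from 12 h to 48 h (limma adjusted p = 0.0205), a call kept in 4 of 9 fits with 1 library left out. In those 9 fits the calls from 12 h to 48 h were kept in 4 for psme1, 4 for tap1, 2 for psmb8 and 1 for psmb9, and the rise of psme1 at 12 h in 1. The ratio of b2m to dab was 5.87, 5.16 and 5.88 in the controls, 10.3, 14.4 and 11.4 at 12 h and 7.29, 7.45 and 7.98 at 48 h. No test was run on this ratio, and the Swiss-Prot match of dab is itself a class I alpha chain.

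Markers of the cell types that carry class II were measured in the same libraries. Of 10 macrophage and monocyte markers found, limma called lgals3 higher at 12 h, and c1qc and csf1r higher at 48 h than at 12 h. Of all features, 1.42% were called at 12 h against 0 h and 1.68% at 48 h against 12 h. The same shares apply to the other lists below. In the fits that left out a library, lgals3 was called in 0 of 9, and c1qc and csf1r in 2 of 9 each. The medians of the 10 were -0.56 at 12 h, 0.20 at 48 h and 1.12 from 12 h to 48 h on the log2 scale, beside -0.07, 0.13 and 0.21 over all features. The gene c1qc, a complement C1q subunit made by macrophages, had 539, 513 and 780 TPM in the controls, 370, 125 and 237 TPM at 12 h and 699, 666 and 702 TPM at 48 h. The macrophage list summed to 2563 to 4008 TPM at 0 h and 1176 to 2325 TPM at 12 h. Its sums at 48 h were 3349 to 3581 TPM. The C1q genes made up most of each macrophage sum, with c1qb alone at 408 to 1668 TPM in the 9 libraries. Outside them, csf1r was also lowest at 12 h, with means of 29.2, 16.7 and 42.3 TPM. The gene lgals3 was highest there, with means of 44.3, 72.4 and 49.9 TPM. B cell markers summed to 926 to 1274 TPM at 0 h, 1065 to 1486 TPM at 12 h and 1183 to 1300 TPM at 48 h. The gene pou2af1 alone had 520 to 972 TPM in the 9 libraries and so made up most of each B cell sum. Dendritic cell markers summed to 427.5 to 562, 336 to 526 and 306 to 386 TPM in the same groups. Of 11 B cell markers, fcrl5 alone was called, lower at 12 h. The list had median log2 differences of 0.19 at 12 h, -0.155 at 48 h and -0.116 from 12 h to 48 h. Of 7 dendritic cell markers, ccr7 alone was called, lower at 48 h than at 12 h. The medians of this list were -0.34 at 12 h, -0.44 at 48 h and -0.18 from 12 h to 48 h. With 1 library left out, fcrl5 was called in 2 of 9 fits and ccr7 in 5 of 9. No marker found could be at 0 in all libraries, because every feature reaches at least 2.01 TPM in some library. Proximal tubule markers summed to 274 to 741 TPM at 0 h and 170 to 245 TPM at 12 h. At 48 h they summed to 196 to 381 TPM. Of the 10 markers, limma called 3 lower at 12 h (amn, anpep and aqp1), beside 0.831% of all features. Of 8 erythroid markers, tal1 was called lower at 12 h. Of 10 T cell markers, cd28 and tcf7 were called lower at 48 h than at 12 h. With 1 library left out, each of these 6 calls was kept in 4 to 6 of 9 fits. The median log2 difference at 12 h was -1.31 over the proximal tubule markers and -1.52 over the erythroid markers. Over the T cell markers it was 0.61 from 12 h to 48 h, opposite in direction to cd28 and tcf7. The part of any cell type in the levels of the chains was not tested.

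The features whose pattern was most like that of the most abundant beta chain, the invariant chain and the longer ifi30 feature were found by Pearson's correlation of log2(TPM + 1) over the 9 libraries, among 8399 named features whose mean reached 10 TPM. For dab they were pam-a (r = 0.938), the hemoglobin subunit alpha-D (r = 0.915) and tpt1 (r = 0.888). For the invariant chain they were nsa2 (r = 0.942), pam-a (r = 0.907) and alpha-D hemoglobin (r = 0.898). For ifi30 they were galns, a lysosomal sulfatase (r = 0.991), a feature named pigy but described as mitochondrial protein prey (r = 0.987), and irf2bp2a (r = 0.972). These correlations describe 9 libraries of 3 groups, in which a difference between groups or a library that stands apart raises r, and they were the highest of many.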

How the data were processed

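RNA-seq of kidney was deposited by the authors as a table of 46444 features, whose 9 value columns match the libraries through the labels. No unit is named in it. The deposited values were read as TPM, because column sums run from 993873 to 996068 and the smallest steps between values are finer for longer features. The assembly is Trinity by the feature names, and the aligner and quantification tool are not given in the sources used here. Every feature reaches at least 2.01 TPM in some library. No counts are in the table, so depth is an estimate from the steps. Between 71.6% and 79.6% of low values were whole numbers of reads to within 0.1. The worth of a read in each library was chosen to maximize this share, so the share is no test of the estimate. Near-identical copies of MHC genes can share reads, so values of the beta chains are uncertain to that extent.

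The filter asked for 1 TPM in 3 or more libraries and kept 45473 features, all 10 members among them. limma 3.58.1 in R 4.3.3 was fitted to log2(TPM + 1) of all 9 libraries, with a coefficient per group and trended, robust eBayes. Tests were two-sided, and calls have a p under 0.05 after Benjamini-Hochberg adjustment over all features. A fold change on this scale understates that of low features. The fit was tested on simulated data. Python 3.11.15 with pandas 2.3.3 and matplotlib 3.10.9 did the rest. Alternatives were quantile normalization, eBayes neither trended nor robust, no filter or a 5 TPM filter, a 0.1 pseudocount and a replicate block. Others were fits of the compared groups alone, each library left out, averaging controls 1 and 2, summing features of 1 description, and stricter thresholds.

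Members given by library are CD74, the longer ifi30 feature, those with a mean of at least 50 TPM and any called. The rest are in ranges. The ifi30 fragment is among them, although the plan was to give every IFI30 feature by library. ciita and rfx1 were added to those given by library after their values were seen. List members were named where called or where highest. The genes rfx5, rfxap, rfxank, ctss and lgmn were named for their role after their values were seen. Some list members are not reported here. In each list the feature with the highest mean stands for a symbol. The members and lists were chosen with earlier results of these data known.

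Between controls 1 and 2 the median squared difference in estimated reads, scaled to counting noise, was 1.42 times its expected value. For the other within-group pairs it was 4.23 to 14.4 times. Controls 1 and 2 were kept as separate libraries. Same-numbered libraries of different groups had correlations of deviations of -0.22 to 0.37 over 9 pairs, so the numbers were not taken to pair libraries.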

Additional observations from a re-analysis of the deposited data

How the results depend on the processing

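The I-E beta chain, dab, was the one member called at 12 h against 0 h. The number of members called there was 0 under quantile normalization and with eBayes neither trended nor robust. It was also 0 with only the compared groups and with controls 1 and 2 averaged. With an adjusted p under 0.01 or an absolute log2 difference of at least 1 it was 0. When 1 library was left out it was 0 to 1. From 12 h to 48 h it was 1 (ifi30) with the 5 TPM filter and 0 to 1 when 1 library was left out. Averaging controls 1 and 2 and leaving out 12 h library 3, chosen after seeing the data, left 0 members called.

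Of all features, 647 were called at 12 h against 0 h, and 326 with eBayes neither trended nor robust. There were 250 with only the compared groups and 60 with the controls averaged. The averaging with 12 h library 3 out gave 3, and an adjusted p under 0.01 gave 61. Between 48 h and 0 h, 5 were called: 0 with eBayes neither trended nor robust, and 3 with a pseudocount of 0.1. The averaging with 12 h library 3 out gave 0. Summing features of 1 description gave 3, and an adjusted p under 0.01 gave 3. Between 48 h and 12 h, 763 were called: 458 with eBayes neither trended nor robust, and 1364 with the 5 TPM filter. There were 438 with the controls averaged and 0 with the averaging and 12 h library 3 out. At an adjusted p under 0.01 there were 35. Leaving out 1 library gave 34 to 876, 0 to 78 and 29 to 2492 calls. The highest of each range, 876, 78 and 2492, came without control 3.

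With the replicate number as a block, 0 members were called at 12 h against 0 h, and 284, 3 and 285 of all features in the 3 comparisons. The numbers were not taken to pair the libraries.

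Of 563 log2 differences compared, 521 kept their direction and their side of the threshold, and 25 changed sign, none of them called. Many of the 563 could not change sign, so the 521 does not measure robustness. Changes of eBayes, filter or block, and leaving out a library of the group not compared, keep the log2 difference and alter only its p. Summing features of 1 description also gives members that share a description the same value. Quantile normalization moved the median of all features from 12 h to 48 h by -0.18 and gave differences of 0.073 for the invariant chain, -0.14 for ciita, -0.0636 for rfx1-like B and 0.0216 for dab. The averaging with 12 h library 3 out gave, at 12 h, -0.0401 for rfx1, -0.0374 for rfx1-like A and 0.0712 for ciita, and -0.097 for ciita from 12 h to 48 h. With 1 library left out, the differences from 0 h at 12 h ran from -0.014 to 0.0789 for rfx1, from -0.00034 to 0.45 for rfx1-like A, from -0.625 to 0.264 for the ifi30 fragment and from -0.162 to 0.0656 for ciita. Those at 48 h ran from -0.158 to 0.0989 for ciita and from -0.30 to 0.0385 for its fragment. From 12 h to 48 h they ran from -0.121 to 0.135 for ciita, from -0.119 to 0.015 for the invariant chain, from -0.0039 to 0.275 for rfx1-like B and from -0.148 to 0.0182 for dab. The cause of these changes was not tested. Fragments removed by the 5 TPM filter have no value under it. The estimated depth limits the fragments most.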
